A study of Rattus norvegicus with 24 samples.

Results

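Vomeronasal and taste receptor genes were followed on 24 whole-genome expression arrays of rat liver, 1 array per rat. The array holds 230 probes whose gene name begins with Vom1r, V1r, Vom2r, V2r, Tas1r or Tas2r, for 200 gene names. Of these, 64 probes for 63 gene names were well above background on at least 6 of the 24 arrays and are described here; in the whole series 21181 of 30367 probes met that limit. Well above background is the scanner software's mark for a spot brighter than its surroundings, and a probe counted on an array when at least 50% of its spots carried it. The 64 probes were chosen by that mark, so their detection and their levels are given as a description, without a test. The mark was taken over all arrays whatever the diet, but a probe that passed only on 1 group of arrays had to be higher there; 23 of the 64 were well above background on all 24 arrays, and their counts are given separately.

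The rats were mature male Wistar rats, 6 months old at the start and 9 months old when liver was taken after 12 weeks on purified AIN76A-based diets, with 6 rats on each of 4 diets. The diets were 30% sucrose with low copper (under 0.3 mg/kg), 30% sucrose with adequate copper (125 mg/kg), 10% sucrose with low copper, and the control diet of 10% sucrose with adequate copper. The sample names call the adequate copper diets "High Cu". Starch and dextrin balanced the carbohydrate, and total RNA of whole frozen liver was labelled with Cy3, so the rats and not the cells are the replicates. The 24 arrays lay on 3 slides of 8. Slide 1 held the 6 rats on low copper/30% sucrose and 2 rats on adequate copper/30% sucrose. Slide 2 held the other 4 rats on adequate copper/30% sucrose and 4 rats on low copper/10% sucrose. Slide 3 held the last 2 rats on low copper/10% sucrose and all 6 control rats. No control rat shared a slide with a rat on 30% sucrose, and this bears on each comparison with the control rats.

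Vomeronasal receptors are G-protein-coupled receptors of sensory neurons in the vomeronasal organ of rodents, where they detect pheromones and other social cues. The V1R receptors work with the G protein subunit Gnai2 and the V2R receptors, which carry a long outer domain, with Gnao1; both classes open the channel Trpc2. Taste receptors sit in taste cells of the tongue and in tuft cells of the gut and airways: Tas1r1 pairs with Tas1r3 in the receptor for amino acids, Tas1r2 with Tas1r3 in the sweet receptor, and the Tas2r receptors detect bitter compounds. Their signal runs through gustducin (Gnat3), Plcb2 and the channel Trpm5. Most of these genes lie in clusters of close copies, and none is known as a gene of hepatocytes.

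Each value rests on 60-base probes, and the letters decide which copy of a receptor a probe can bind. All sequences here are those in the array files, printed in lower case with positions on build rn4; exon and UTR positions were not given there. The first set holds the probes to which the results below return. Vom2r34 and Vom1r57 were well above background in every rat, and Tas1r1 and Tas1r3 are the umami receptor pair. Vom2r35, Vom2r36, Vom1r21 and Vom1r6 are among the members whose differences between diets or slides are given below.
Vom2r34 (chr1:73083177-73083236): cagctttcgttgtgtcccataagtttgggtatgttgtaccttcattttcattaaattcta
Vom1r57 (chr1:73446096-73446155): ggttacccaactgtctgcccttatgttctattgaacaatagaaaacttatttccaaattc
Tas1r1 (chr5:169256748-169256807): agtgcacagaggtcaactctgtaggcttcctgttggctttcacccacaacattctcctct
Tas1r3 (chr5:172718551-172718610): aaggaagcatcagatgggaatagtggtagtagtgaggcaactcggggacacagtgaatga
Vom2r35 (chr1:73113650-73113709): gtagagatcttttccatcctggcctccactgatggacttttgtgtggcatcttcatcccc
Vom2r36 (chr1:73180629-73180688): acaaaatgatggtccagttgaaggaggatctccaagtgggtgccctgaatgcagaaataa
Vom1r21 (chr1:58878536-58878595): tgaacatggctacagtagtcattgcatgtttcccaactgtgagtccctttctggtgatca
Vom1r6 (chr1:57689990-57690049): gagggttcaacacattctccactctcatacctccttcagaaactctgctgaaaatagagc
Of these, Vom1r21 and Vom1r6 lie on the plus strand and the other 6 on the minus strand.

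The second set shows how little separates a probe that gave signal from one that did not. The capitals mark the longest run of bases that both probes of a pair share. The array has 2 probes for V1rd15, placed 9 bases apart on the plus strand of chromosome 1, with 51 bases in common.
V1rd15, start 68177439: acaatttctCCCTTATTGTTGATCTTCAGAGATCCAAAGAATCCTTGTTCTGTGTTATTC
V1rd15, start 68177448: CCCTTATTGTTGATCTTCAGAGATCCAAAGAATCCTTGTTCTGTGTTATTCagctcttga
The probe that starts at 68177439 was well above background on 18 arrays, with a mean level of -4.52 ± 1.44 (SD over 24 rats), and the probe that starts at 68177448 on 0 arrays, with a mean of -7.47 ± 0.22. Levels are log2 values relative to the 75th percentile of the probes on the same array, so a level of 0 is that percentile. All differences between groups below are on the same log2 scale. The same gene name thus gave a signal from 1 probe and none above background from the other. Vom1r76 and Vom1r72, on the plus strand of chromosome 4, share 39 bases in 1 run.
Vom1r76 (chr4:86533692-86533751): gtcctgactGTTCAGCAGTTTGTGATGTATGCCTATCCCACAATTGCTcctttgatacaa
Vom1r72 (chr4:86363563-86363622): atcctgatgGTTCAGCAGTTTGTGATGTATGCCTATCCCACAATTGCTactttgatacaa
The Vom1r76 probe was well above background on 8 arrays and the Vom1r72 probe on 1 array. Vom1r28 and the pseudogene entry Vom1r-ps39, both on the plus strand of chromosome 1, share 55 bases.
Vom1r28 (chr1:63155065-63155124): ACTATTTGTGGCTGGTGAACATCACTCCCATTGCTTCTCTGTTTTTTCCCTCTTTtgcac
Vom1r-ps39 (chr1:63217473-63217532): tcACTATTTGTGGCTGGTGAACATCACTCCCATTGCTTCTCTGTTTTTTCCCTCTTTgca
Both were well above background on 23 arrays, with mean levels of -3.92 ± 0.86 for Vom1r28 and -4.07 ± 0.70 for Vom1r-ps39 (SD over 24 rats). In single rats the 2 probes could differ in either direction. In low copper/10% sucrose rat 3 Vom1r28 was at -1.96 and Vom1r-ps39 at -3.66. In adequate copper/30% sucrose rat 1 they were at -5.06 and -3.52. Which copy each probe bound was not tested, and with 55 shared bases the 2 are not taken as independent members.

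Among the 63 gene names, 10 had more than 1 probe on the array, and 9 of those 10 had a probe among the 64 and another that failed the limit. The exception was Vom2r34, whose 2 probes both passed. They lay in different parts of the transcript and shared at most 5 bases in a row. The one printed above was well above background on 24 arrays at a mean of 2.30 ± 0.26, and the other on 21 arrays at -4.49 ± 0.58. For Vom2r36, the probe printed above was on 24 arrays and a probe listed 26 bases away on 0. For Vom2r59 the counts were 21 and 0 arrays for probes listed 39 bases apart. For Vom2r71 they were 24 and 1, for Vom2r56 23 and 1, for Vom2r19 20 and 0, and for Vom2r41 17 and 0. The probes of 1 receptor gene therefore did not report 1 level. In addition 15 of the 64 probes list more than 1 RefSeq transcript in the array files, among them Vom1r23 and Vom1r55. Current RefSeq symbols were found for 43 of the 64 through their transcript accessions, all equal to the array's names, and the other names are the array's.

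The 64 probes were spread unevenly over the families. Of 98 V1R probes 34 passed (34.7%), of 97 V2R probes 21 (21.6%), and of 33 Tas2r probes 7 (21.2%). Both Tas1r probes, Tas1r1 and Tas1r3, passed, and no probe carried the name Tas1r2. Over all 230 receptor probes 27.8% passed and 96 (41.7%) were well above background on no array. For the odorant receptors, the other large family of chemosensory receptors, 331 of 1211 probes passed (27.3%) and 346 (28.6%) were on no array. Over all probes of the series 69.8% passed and 13% were on none. No test was made of these shares, since detection chose the members. At the limit itself, Tas2r125, Tas2r129 and Vom2r63 were well above background on exactly 6 arrays, with mean levels of -5.54, -5.71 and -6.32. Just outside it, Vom1r48 and Vom2r17 were on exactly 5 arrays, with means of -6.74 and -6.49.

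The members shared a higher share of G and C bases in the probe, which the rule did not use. They had a median of 26 G or C bases of 60 (range 21 to 30), against 22 (range 21 to 27) in the 166 receptor probes that failed. The odorant receptor probes showed the same contrast, with 26 in those that passed and 23 in those that failed. Of 127 receptor probes with 21 to 23 such bases 15.7% passed, of 52 with 24 to 26 it was 32.7%, and of 51 with 27 to 30 it was 52.9%. Across the 230 probes the Spearman correlation of this count with the mean level was 0.374, and across the 64 members 0.0861; probes are not independent replicates, and these points share all 24 arrays. What part base composition has in the signal was not tested.

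By position, 35 of the 64 lay on chromosome 1 and 15 on chromosome 4, where 109 and 75 of the 230 receptor probes lie. A window of 1388 kb on chromosome 1, from 72284017 to 73671862 (rn4), held 15 receptor probes, of which 11 were members and 8 were well above background on all arrays. They were Vom1r52, Vom1r53, Vom1r54, Vom1r55, Vom1r57, Vom1r59, Vom1r61, Vom2r35, Vom2r36 and both probes of Vom2r34. The window's ends are the outermost of these probes and were set after their values were seen. It also held 25 probes of other genes, of which 16 passed the same limit and 10 were on all arrays. The probes of Vom1r53 and Vom1r54 overlap by their listed positions, but their bases differ within the overlap. They were well above background on 12 and 24 arrays.

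The liver samples carried liver genes, and signals were also found for many genes listed for chemosensory cells. All 8 hepatocyte markers were well above background on 24 arrays, among them Alb (albumin) at 8.67 ± 0.29 and Ttr (transthyretin) at 9.08 ± 0.31 (SD over 24 rats). Of 8 markers of vomeronasal and olfactory neurons, 4 had a probe past the limit. Gnal and Gng8 were each on 24 arrays. Ncam2 was on 24 by 1 probe and on 0 by its other probe. Trpc2 was on 24 by 1 probe at -2.38 ± 0.20 and on 1 by its other probe. The other 4 had none: Omp, the olfactory marker protein, and Cnga2 were each on 1 array, and Adcy3 and Stoml3 on 0. The level summed over the 10 probes of the neuron list ran from -0.71 to -0.49 on low copper/30% sucrose, -0.73 to -0.37 on adequate copper/30% sucrose, -0.68 to -0.47 on low copper/10% sucrose, and -0.77 to -0.31 on the control diet, and these ranges overlap.
Of 10 taste and tuft cell markers, 8 had a probe past the limit. Plcb2 was on 24 and 16 arrays with its 2 probes, Otop1 on 24, Trpm5 on 22, Il25 on 19, Pkd2l1 on 12 with 1 probe and 0 with the other, Avil on 8, Gnat3 on 7 and Pou2f3 on 6, while Calhm1 was on 1 and Dclk1 on 0 with either probe. Their summed level ran from -1.87 to -1.25 on low copper/30% sucrose, -1.25 to -0.82 on adequate copper/30% sucrose, -1.29 to -0.74 on low copper/10% sucrose, and -1.78 to -1.38 on the control diet. In this sum adequate copper/30% sucrose and low copper/10% sucrose lay above the control diet, whose rats were all on slide 3, without overlap. Receptor probes rose in the same diets below. Not all markers followed the sum. On low copper/10% sucrose and in control rats Trpm5 averaged -4.52 and -4.52, Gnat3 -5.98 and -5.90, and Avil -5.33 and -5.10. Every other probe of the list averaged higher on low copper/10% sucrose than in control rats. The part of such cells in the receptor signals was not tested. Gnai2, a signalling partner of the V1R receptors, was on all arrays at 3.64 ± 0.23, and is a subunit used in most cell types. In such bulk samples, more cells of a type and more RNA per cell cannot be told apart.

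The number of the 64 probes well above background in a rat differed between diets and between slides. It ran from 42 to 60 (median 50) on low copper/30% sucrose, from 45 to 61 (median 56.5) on adequate copper/30% sucrose, from 47 to 62 (median 57) on low copper/10% sucrose, and from 31 to 48 (median 43.5) in control rats. By slide it ran from 31 to 50 (median 46.5) on slide 3, from 54 to 62 (median 59.5) on slide 2 and from 42 to 60 (median 50) on slide 1. No rat of slide 3 reached the lowest rat of slide 2. Over all probes, the share well above background was 59.9 to 67.2% (median 65.1%) on slide 3 and 66.4 to 71.0% (median 67.9%) on slide 2. These 2 ranges overlap. On slide 1 it was 61.4 to 73.4% (median 65.7%). By diet, in the order above, the medians of this share were 65.7%, 67.4%, 67.6% and 64.8%. The 2 rats on low copper/10% sucrose that lay on slide 3 had 47 and 50 probes, and the 4 rats of the same diet on slide 2 had 54 to 62. The median local background of the arrays was 38 to 40 intensity units on slide 3, 41 to 45.5 on slide 2 and 40 to 48 on slide 1. Its part in the counts was not tested.

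**Figure D1:**
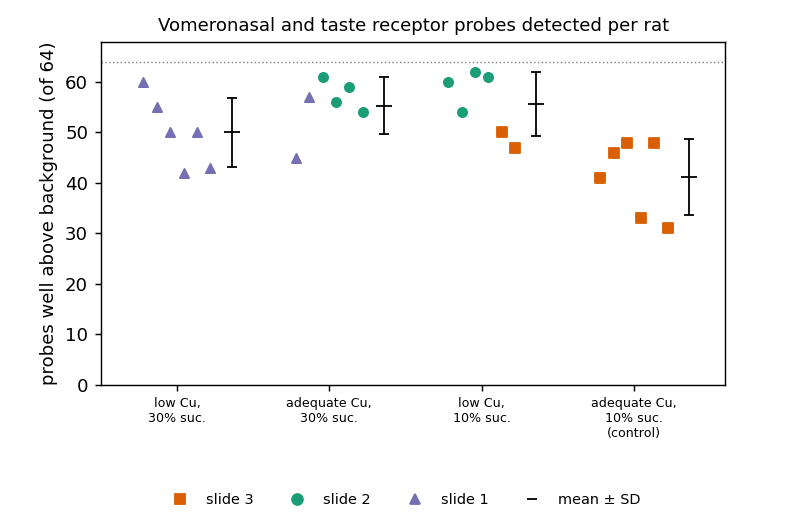
The number of the 64 receptor probes well above background (vertical axis) is plotted for each rat by diet, with the slide as colour and shape and the mean ± SD of 6 rats beside the points. Control rats, all on slide 3, have 31 to 48 probes, and the 2 slide 3 rats on low copper/10% sucrose have 47 and 50, below the 54 to 62 of the 4 slide 2 rats of that diet.

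In several receptor probes all 4 diets overlapped. Vom2r34, a V2R receptor gene, had levels of 2.28 to 2.70 (median 2.41) on low copper/30% sucrose, 1.86 to 2.47 (median 2.27) on adequate copper/30% sucrose, 2.02 to 2.52 (median 2.29) on low copper/10% sucrose and 1.79 to 2.68 (median 2.42) in control rats. Low minus adequate copper at 10% sucrose was -0.0028 ± 0.16 (SE) for this brighter Vom2r34 probe, with a limma adjusted p of 0.994. The other Vom2r34 probe was at -5.28 to -4.13 on low copper/30% sucrose and -4.80 to -3.12 on adequate copper/30% sucrose. On low copper/10% sucrose that probe was at -4.51 to -3.87, and in control rats at -5.45 to -4.43, so the 2 probes did not show the same pattern.
Tas1r1, the subunit particular to the amino acid receptor, had levels of -2.22 to -1.71 (median -1.78) on low copper/30% sucrose and -2.52 to -1.77 (median -2.10) on adequate copper/30% sucrose. On low copper/10% sucrose it was at -2.44 to -1.45 (median -1.76), and in control rats at -2.10 to -1.37 (median -1.78). These also overlapped, and its largest simple diet difference was -0.38 ± 0.17 for 30% against 10% sucrose at adequate copper, with a limma adjusted p of 0.124; it passed with array weights (-0.45, limma adjusted p 0.0274) and with quantile normalization (below). Tas2r126, a bitter receptor gene on all 24 arrays, averaged -3.48 ± 0.37, -3.47 ± 0.38, -3.44 ± 0.32 and -3.58 ± 0.25 (SD, n = 6 each) in the same order of diets, with wide overlap.

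In 4 further members on all 24 arrays the control rats had the lowest mean, with overlap. Vom1r57, a V1R receptor gene, averaged 1.27 ± 0.25 on low copper/30% sucrose, 1.44 ± 0.26 on adequate copper/30% sucrose, 1.53 ± 0.49 on low copper/10% sucrose and 0.92 ± 0.23 in control rats (SD, n = 6 each). Vom1r23, another V1R gene, averaged 0.48 ± 0.24, 1.18 ± 0.34, 0.90 ± 0.63 and 0.39 ± 0.37, and Vom1r55 0.67 ± 0.51, 0.95 ± 0.45, 0.92 ± 0.34 and 0.33 ± 0.32, in the same order of diets. Vom1r30 averaged -0.83 ± 0.22, -0.68 ± 0.47, -0.75 ± 0.40 and -1.19 ± 0.14. In each of them the highest control rat lay above the lowest rat of every other diet.

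**Figure D2:**
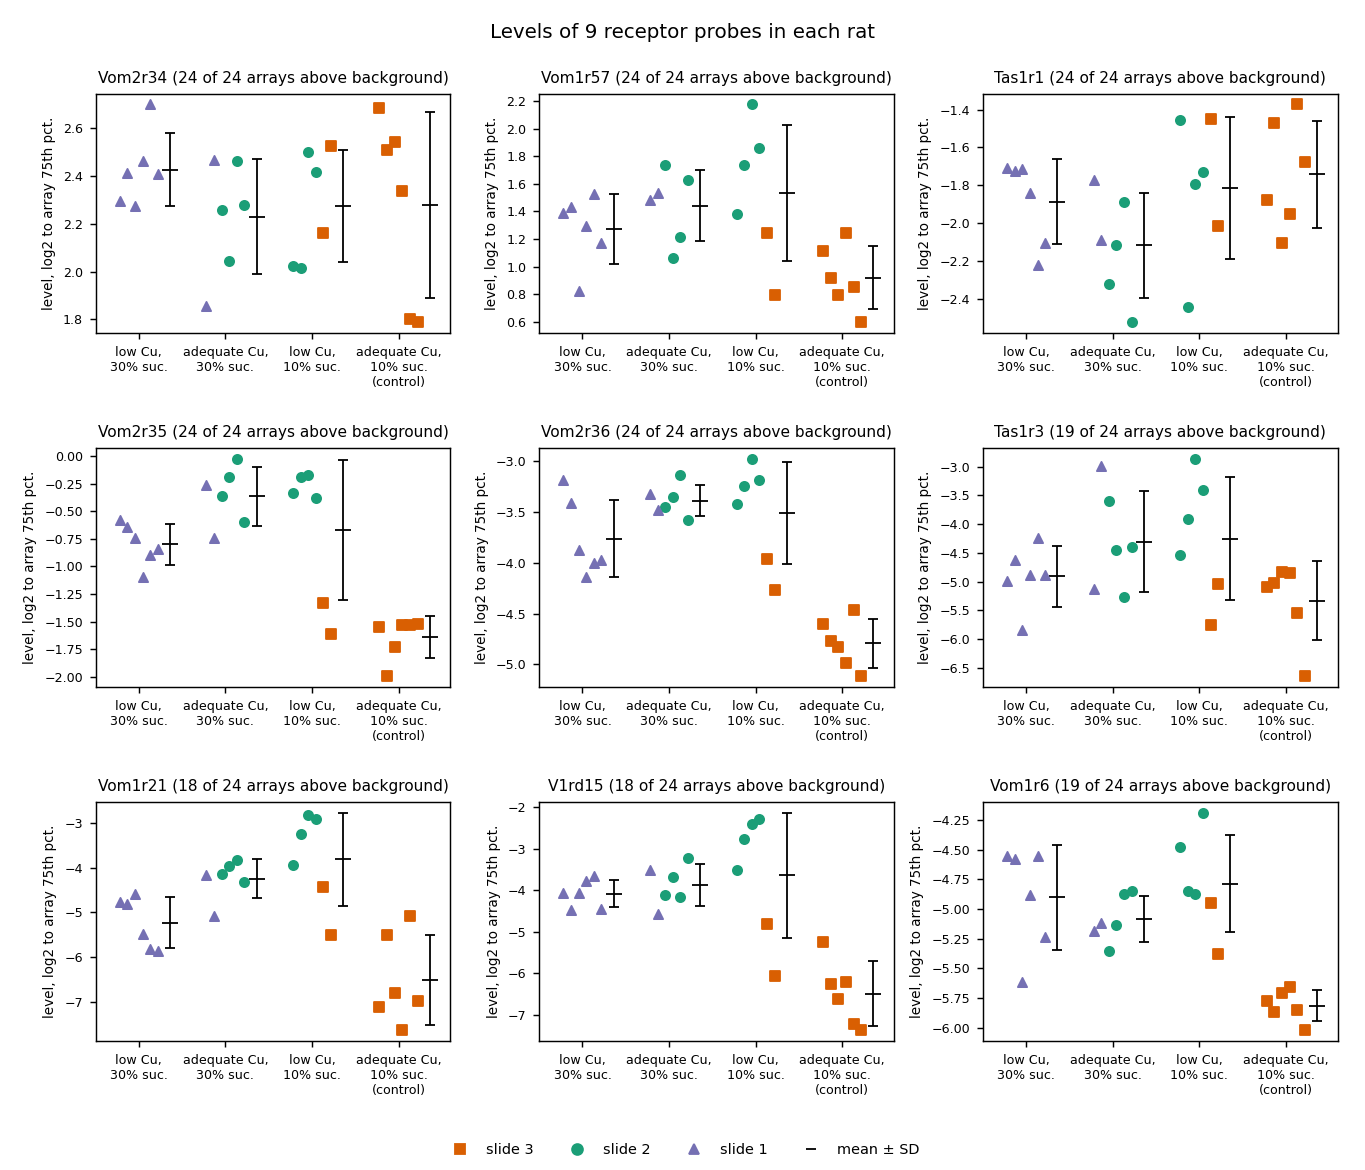
Each panel plots the level of 1 receptor probe (vertical axis, log2 relative to the array's 75th percentile) in each rat by diet, with the slide as colour and shape and the mean ± SD of 6 rats beside the points. The brighter Vom2r34 probe and Tas1r1 overlap across all diets. For Vom2r35, Vom2r36, Vom1r21 and V1rd15 the 2 slide 3 rats on low copper/10% sucrose lie below the 4 slide 2 rats of that diet.

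The first diet question was whether low copper changed receptor signal at 10% sucrose. Of the 64 probes, 40 were higher in rats on low copper than in control rats and 0 were lower (limma, adjusted over all 21181 probes, threshold 0.05); over all probes 17.3% passed as higher and 0.557% as lower. The median difference of the 64 was 0.93, beside 0.05 for all probes; with normexp background correction it was 0.35 beside 0.02, and with quantile normalization 0.49 beside -0.04. By family, 21 of 34 V1R, 15 of 21 V2R, 4 of 7 Tas2r and 0 of 2 Tas1r probes rose. Of the odorant receptors 258 of 331 rose. Of the 23 members on all 24 arrays, fitted among the 16668 such probes of the series, 13 rose, beside 11.7% of those probes.
Vom2r36, a V2R receptor gene, had the smallest p: it was at -4.27 to -2.97 (median -3.33) on low copper and at -5.12 to -4.46 (median -4.80) in control rats, and the groups did not overlap. Its difference was 1.29 ± 0.19 (SE), or 2.44-fold, with a limma adjusted p of 0.000746. Vom1r21, a V1R gene, was at -5.52 to -2.82 (median -3.59) on low copper and -7.65 to -5.08 (median -6.90) in control rats, where 2 of 6 arrays were well above background. Its difference was 2.71 ± 0.44, with a limma adjusted p of 0.000851, but most of its control values lie at background, so the size is uncertain. V1rd15, by its probe with signal, was at -6.07 to -2.30 (median -3.15) on low copper and at -7.37 to -5.24 (median -6.44) in control rats, of which 1 was well above background. The measured means differed by 2.84 ± 0.49 (limma adjusted p 0.000916), but 5 of the 6 control values lie at background, so the size is uncertain. Vom1r6 was at -5.38 to -4.19 (median -4.86) on low copper and -6.02 to -5.66 (median -5.81) in control rats, without overlap, and rose by 1.03 ± 0.18 (limma adjusted p 0.000995). Tas1r3, the shared subunit of the sweet and amino acid receptors, was at -5.75 to -2.86 (median -4.23) on low copper and at -6.64 to -4.84 (median -5.05) in control rats. Its difference of 1.08 ± 0.44 did not pass (limma adjusted p 0.104).

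For 8 members no control array was well above background, so only an approximate lower bound of the difference can be given. The bound sets the mean of all 6 low copper rats against the higher of the array's detection floor and the probe's own signal in the control rats. Low copper rats not well above background enter with their measured values, so the bound is cautious on the control side only. Here and below, "at least" refers to this approximate bound. Such a probe met the detection limit only through rats on other diets, which had to be brighter, so the bounds are a description without a test; 7 of the 8 are among the 40. Tas2r129, a bitter receptor gene, was at least 2.92-fold higher on low copper (3 of 6 arrays well above background), with measured means of -5.03 ± 0.61 on low copper and -6.78 ± 0.83 in control rats (SD, n = 6 each). Vom1r8 was at least 2.78-fold higher, Vom1r31 at least 2.67-fold and Vom1r76 at least 2.43-fold. The bounds for Vom2r63, Tas2r136, Vom1r32 and Tas2r125 were 2.20, 2.06, 1.99 and 1.85-fold. Tas2r129, Tas2r125 and Vom2r63 were on exactly 6 arrays in all.

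With slide as a term in the model, 0 of the 64 passed for low copper at 10% sucrose, as did 0.0% of all probes; at an unadjusted p under 0.05 there were 14 members and 6.59% of all probes. In that model the difference rests on slide 3 alone, where 2 low copper rats stand beside the 6 control rats, so its power is low. It was above 0 for 59 of the 64, with a median of 0.40, beside 0.04 for all probes. Vom2r36 differed by 0.68 (limma adjusted p 0.607), Vom1r21 by 1.55 (0.627), V1rd15 by 1.05 (0.719) and Vom1r6 by 0.65 (0.667 as limma adjusted p). Without low copper rat 3, which lay on slide 2, 25 members rose, beside 12.7% of all probes. Without control rats 4 and 6, which had the fewest detected members and were left out after their values were seen, 23 rose, beside 11.9%.

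The sucrose question at adequate copper used the same 6 control rats. Of the 64 probes, 31 rose on 30% sucrose relative to control rats and 0 fell, beside 17.6% of all probes that rose and 2.41% that fell. The median was 0.78 for the 64 and 0.06 for all probes, against 0.33 and 0.05 with normexp and 0.36 and -0.03 with quantile normalization. V1R, V2R and Tas2r had 18 of 34, 10 of 21 and 3 of 7 probes higher, Tas1r 0 of 2, and the odorant receptors 241 of 331. Of the 23 members on all 24 arrays 10 rose, beside 12.3% of such probes in the series.
Vom2r36 was at -3.58 to -3.14 (median -3.40) on 30% sucrose, against -5.12 to -4.46 (median -4.80) in the control rats, and differed by 1.41 ± 0.19 (SE), or 2.65-fold, with a limma adjusted p of 0.000419. Vom2r35, its neighbour on chromosome 1, was at -0.75 to -0.02 (median -0.32) on 30% sucrose and at -1.99 to -1.52 (median -1.54) in control rats. It differed by 1.28 ± 0.21, or 2.43-fold, with a limma adjusted p of 0.000754. Neither pair of groups overlapped. Tas2r125, on 2 of 6 arrays on 30% sucrose and on 0 of 6 in controls, was at least 2.66-fold higher, and Vom1r76, on 2 and 0 arrays, at least 2.74-fold; both are given without a test, and 5 members with no control array above background are among the 31. Tas1r3 differed by 1.03 ± 0.44 and did not pass (limma adjusted p 0.106).
Quantile normalization gave 14 members higher in place of 31, and 2 lower in place of 0, Tas1r1 (-0.50, limma adjusted p 0.0424) and Vom1r94 (-0.63, limma adjusted p 0.0383, against -0.06 without it; named after its value was seen). Over all probes it gave 8.1% higher and 6.19% lower. For low copper at 10% sucrose it gave 18 members higher and 0 lower, and over all probes 8.01% higher and 3.33% lower. With the slide term 0 of the 64 and 0.0% of all probes passed for sucrose, with 3 members and 4.06% of all probes at an unadjusted p under 0.05. That difference has to be chained over slides 2 and 3, since no slide holds both diets. Vom2r36 then differed by 0.50, Vom2r35 by 0.14 and V1rd15 by 0.0041. Without control rats 4 and 6, 17 members rose, beside 11.6% of all probes.

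**Figure D3:**
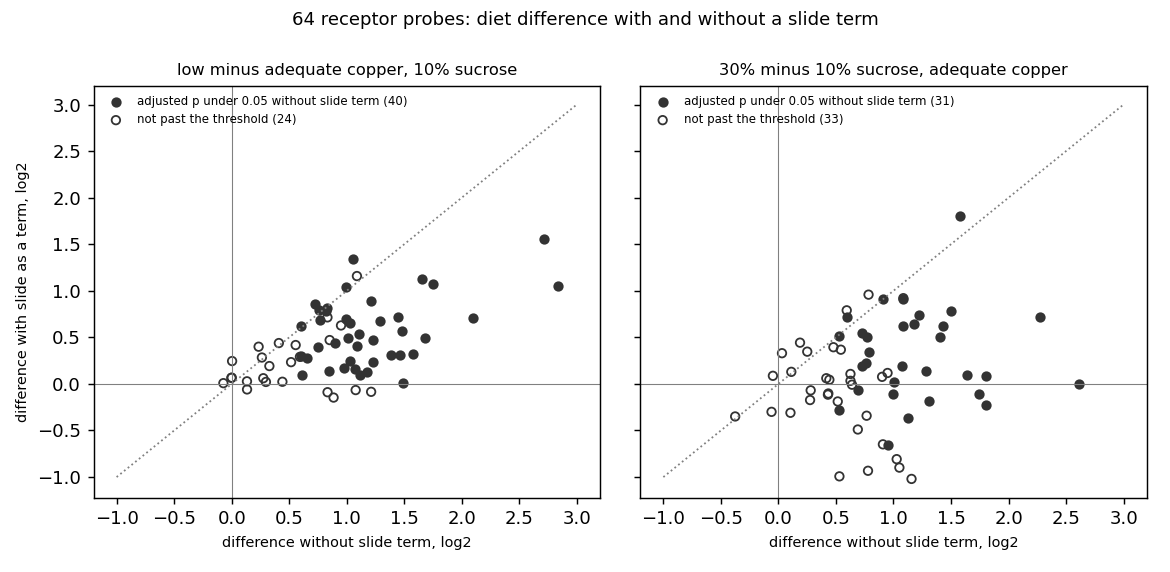
Each point is 1 of the 64 receptor probes, with its diet difference without a slide term (horizontal axis, log2) and with slide as a term (vertical axis, log2), for low minus adequate copper at 10% sucrose on the left and 30% minus 10% sucrose at adequate copper on the right. Filled points pass the adjusted threshold without the slide term (40 on the left, 31 on the right); most points lie below the dotted line of equality, and 0 pass with the slide term.

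At 30% sucrose copper gave no call. Of the 64 probes 0 passed for low against adequate copper, beside 0.0% of all probes, and at an unadjusted p under 0.05 limma gave 6 members and 9.68% of all probes. The median was -0.19 for the 64 and -0.04 for all probes. Vom1r23 had the smallest p, at 0.08 to 0.76 (median 0.52) on low copper and 0.59 to 1.51 (median 1.23) on adequate copper, a difference of -0.70 ± 0.23 with a limma adjusted p of 0.460. Vom1r53 differed by -0.62 ± 0.22 (limma adjusted p 0.463), Vom1r108 by 0.46 ± 0.35 (0.637) and Tas1r1 by 0.23 ± 0.17 (0.621 as limma adjusted p).

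Sucrose at low copper gave 0 of 64 as well, beside 0.0% of all probes, with 9 members and 9.49% of all probes at an unadjusted p under 0.05 in limma. The median was -0.26 for the 64 and -0.05 for all probes. Vom1r100 was at -6.90 to -5.07 (median -5.73) on 30% sucrose and -5.34 to -4.64 (median -5.08) on 10% sucrose, a difference of -0.77 ± 0.23 (limma adjusted p 0.419). Vom1r21 differed by -1.42 ± 0.44 (limma adjusted p 0.432), Tas2r125 by 0.62 ± 0.35 (0.567) and Vom1r5 by 0.42 ± 0.37 (0.711). Without the 2 slide 3 rats on low copper/10% sucrose, left out after their values were seen, 14 members were lower on 30% sucrose, beside 7.47% of all probes. The groups then lie on slides 1 and 2 with none in common. With all rats and slide as a term, which chains the slides through adequate copper/30% sucrose, 0 of the 64 passed, beside 0.033% of all probes, with 12 members at an unadjusted p under 0.05 in limma and a median of -0.51.

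Averaged over sucrose, 0 of the 64 passed for low against adequate copper, beside 0.0% of all probes, with 22 members and 8.56% of all probes at an unadjusted p under 0.05 in limma. Vom1r6 had the smallest p, with a difference of 0.60 ± 0.13 (limma adjusted p 0.381), and V1rd15 differed by 1.32 ± 0.34 (0.381 as limma adjusted p). Vom2r45 and Vom1r22 had the smallest p among negative differences, of -0.31 ± 0.30 and -0.11 ± 0.20. In slides 1 and 3, the only ones that hold both copper levels at 1 sucrose level, Vom1r6 was higher on low copper by 0.25 on slide 1 and by 0.65 on slide 3. Its exact two-sided permutation p over the 784 regroupings within slides was 0.0332, and Vom2r19 had 0.0230, but no member passed after adjustment over all probes (adjusted p of 1); the smallest p that these regroupings allow is 0.00128. With array weights 11 members rose, beside 3.69% of all probes, and without the slide 3 rats on low copper/10% sucrose 17 rose, beside 6.82%.
Averaged over copper, 0 of the 64 passed for 30% against 10% sucrose, beside 0.0% of all probes, with 14 members and 10.7% of all probes at an unadjusted p under 0.05 in limma. Tas2r125 differed by 1.10 ± 0.25 and Vom2r36 by 0.58 ± 0.14 (both with a limma adjusted p of 0.235), Vom1r100 by -0.26 ± 0.16 and Tas1r1 by -0.22 ± 0.12.

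The copper difference was then compared between the sucrose levels. For 32 of the 64 probes it was lower at 30% than at 10% sucrose and for 0 it was higher, beside 18.2% of all probes lower and 1.9% higher. The 64 include 8 with no control array well above background, which met the detection limit only through other diets. Of the 23 members on all 24 arrays 10 were lower, beside 12.9% of such probes in the series. The median interaction was -1.12 for the 64 and -0.09 for all probes, and under quantile normalization -0.57 and 0.06, where 13 members were lower, beside 8.5% of all probes. Vom2r36 averaged -3.76 ± 0.38 on low copper and -3.39 ± 0.15 on adequate copper at 30% sucrose, and -3.51 ± 0.50 on low copper and -4.79 ± 0.24 in control rats at 10% sucrose (SD, n = 6 each). Its interaction was -1.66 ± 0.28 (SE; limma adjusted p 0.000989). Vom1r21 averaged -5.23 ± 0.57 and -4.25 ± 0.44 at 30% sucrose and -3.81 ± 1.04 and -6.52 ± 1.0 at 10% sucrose in the same order of copper, with an interaction of -3.69 ± 0.62 (limma adjusted p 0.00102). The size for Vom1r21 is uncertain, since most of its control values lie at background. Tas1r1 and the brighter Vom2r34 probe had the smallest p on the positive side, at 0.30 ± 0.24 and 0.20 ± 0.22. With the slide term 0 of the 64 passed, beside 0.0472% of all probes; Vom2r36 was at -1.04 (limma adjusted p 0.229) and Vom1r21 at -2.16 (0.270 as limma adjusted p). These 3 comparisons share the control rats and are not independent of each other.

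**Figure D4:**
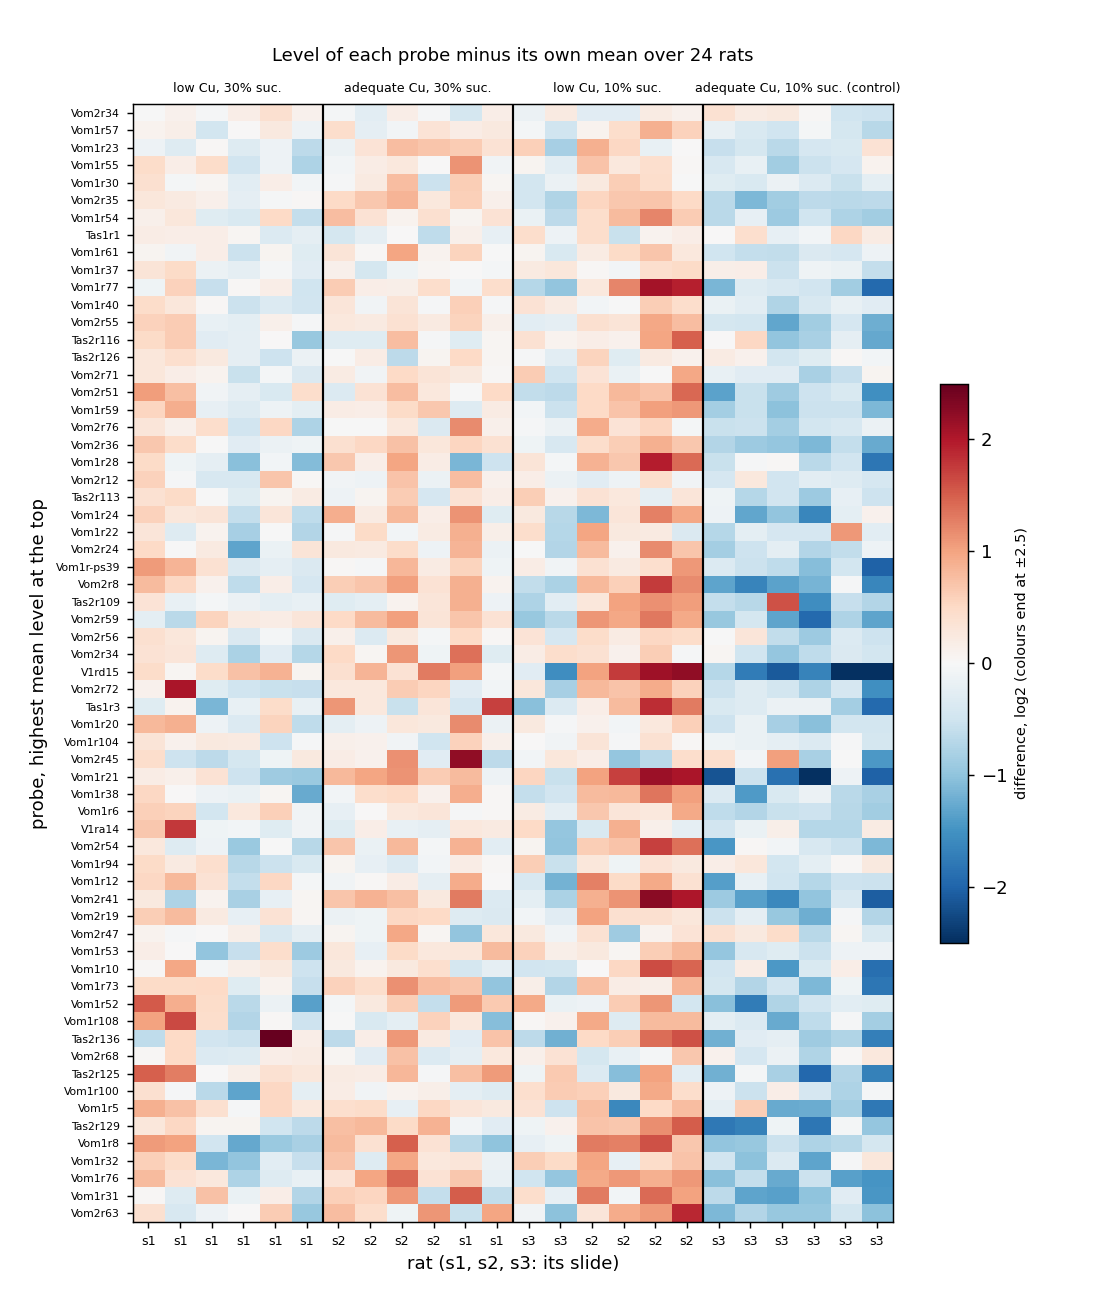
Rows are the 64 receptor probes and columns the 24 rats, ordered by diet and within it by slide (s3, s2, s1); the colour is the level of a probe in a rat minus that probe's mean over all rats, on a log2 scale. The control rats are mostly blue, and within low copper/10% sucrose the 2 slide 3 rats are bluer than the 4 slide 2 rats.

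Slide was tested with diet in the model. Of the 64 probes 12 passed the limma F test of slide, beside 5.44% of all probes, and all 12 were lower on slide 3 than on slide 2, beside 5.32% of all probes. Of the 23 members on all 24 arrays 3 passed, beside 2.99% of such probes in the series. Within low copper/10% sucrose, 51 of the 64 averaged lower in the 2 slide 3 rats than in the 4 slide 2 rats, beside 56.5% of all probes, with a median of -0.57 beside -0.04. Of the odorant receptors 310 of 331 did, with a median of -0.84. Within adequate copper/30% sucrose, 30 of the 64 averaged lower in the 4 slide 2 rats than in the 2 slide 1 rats, beside 61.1% of all probes, with medians of 0.02 and -0.08. Without low copper rat 6, on slide 3, 0 members passed the slide test, beside 0.732% of all probes. Without rat 3 of that diet 5 passed, beside 3.45%, without rat 4 it was 7, beside 3.79%, and without rat 5 it was 4, beside 3.26%.
Vom2r35 had the smallest p. Among rats on low copper/10% sucrose it was at -1.61 to -1.33 on slide 3 and at -0.38 to -0.17 on slide 2, a difference of -1.21 (limma adjusted p of the slide test 0.00134). Vom2r59, a V2R gene, was at -5.15 to -4.87 on slide 3 and at -3.25 to -2.89 on slide 2 in that diet, a difference of -1.89 (limma adjusted p 0.00383). V1rd15 was at -6.07 to -4.81 on slide 3 and -3.53 to -2.30 on slide 2 (limma adjusted p 0.00495), Vom1r77 at -3.31 to -3.04 and -2.06 to -0.25 (0.00958 as limma adjusted p), and Vom1r76 at -6.84 to -6.37 and -4.99 to -4.78 (0.0128 as limma adjusted p). In these 5 the rats of 1 diet did not overlap between slides. Vom1r76 was well above background on 8 arrays in all and in 0 of the 6 control rats, which make up most of slide 3. It met the detection limit mainly through slides 1 and 2, which favoured a lower level on slide 3. Its slide result is therefore a description.

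Some signalling partners of the receptors passed in the same comparisons. Of 34 listed genes 31 were on the array and 24 passed the detection limit, with 28 probes. For low copper at 10% sucrose 9 of the 28 probes rose and 0 fell, beside 17.3% of all probes that rose, and the median of the 28 was 0.19. They were those of Calhm3, a subunit of the taste ATP channel (1.08 ± 0.23, SE, limma adjusted p 0.00244), Gnao1, the G protein of V2R neurons (1.29 ± 0.28, 0.00296 as limma adjusted p), Rtp1, which carries odorant receptors to the membrane (0.69 ± 0.15, 0.00312 as limma adjusted p), and 2 each of Gng13 and Plcb2 with 1 each of Reep1 and Pkd2l1. The other Gnao1 and Pkd2l1 probes were on 0 arrays, and the probes that passed were well above background in 1 of 6 control rats, so the size of their differences is uncertain. The other Reep1 probe was on 24 arrays and averaged -3.60 ± 0.90 on low copper/10% sucrose and -3.19 ± 0.34 in control rats (SD). The 2 Reep1 probes thus went in opposite directions. For 30% sucrose at adequate copper 8 rose, beside 17.6% of all probes, led by Calhm3 (1.25 ± 0.23), Plcb2 (0.96 ± 0.20), Pkd2l1 (1.55 ± 0.35) and Rtp1 (0.63 ± 0.15), and Trpc2 fell by 0.34 (SE 0.10, limma adjusted p 0.0200). Gnai2 and Gnat3 did not pass in these 2 comparisons. None of the 28 passed for the other copper and sucrose differences, 11 were lower in the interaction, beside 18.2% of all probes, and none passed with the slide term.

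Some markers of other cells passed too, beside the 17.3% and 17.6% of all probes that rose in these comparisons. Of the 9 taste and tuft cell probes, which share Plcb2 and Pkd2l1 with the signalling list, 3 rose on low copper at 10% sucrose (both of Plcb2, and Pkd2l1) and 4 on 30% sucrose at adequate copper (the same and Pou2f3). Pou2f3 was on exactly 6 arrays and on 0 control arrays. It met the detection limit only through other diets, which had to be brighter, so its call is a description without a test. Of 4 neutrophil markers 2 rose on low copper at 10% sucrose, Cxcr2 by 1.75 ± 0.32 and Csf3r by 1.33 ± 0.27 (SE), and all 4 on 30% sucrose at adequate copper, with S100a8 at 2.94 ± 0.85 and S100a9 at 2.75 ± 0.80. Cxcr2 was well above background in 1 of 6 control rats, so the size of its differences is uncertain. The summed level of the 4 ran from -2.43 to -0.68 on low copper/30% sucrose, -1.53 to 4.25 on adequate copper/30% sucrose, -2.25 to 1.74 on low copper/10% sucrose and -3.03 to -2.21 on the control diet. Of 7 red blood cell probes 1 rose in the first comparison, Ahsp by 1.02 ± 0.34, and 3 in the second, for Ahsp and Alas2. No bile duct or hepatocyte marker passed in the first or second comparison. Of the 4 vomeronasal and olfactory neuron probes past the detection limit, 0 rose in these comparisons, with medians of -0.06 and -0.14. On 30% sucrose at adequate copper 1 of them fell (Trpc2), beside 2.41% of all probes. In the interaction 1 was higher, beside 1.9% of all probes. None of these calls held with the slide term, and the part of these cells in the receptor signals was not tested.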

How the data were processed

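The members and gene lists were chosen with earlier results of these data known. Per the file headers, spots were read with Agilent Feature Extraction 10.7.3.1, probe positions refer to rn4, and the deposited processed signal is a background-subtracted intensity without scaling between arrays. The deposited marks (well above background, saturated) were used as marks. The authors' deposited series table is, by its values, a score with the same distribution on every array and median 0, whose scale is not given in the sources used here.

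Each array had 58717 spots beside 4259 controls; spots marked as outliers (0.652%) were left out. The log2 processed signal minus the array's 75th percentile was averaged per probe (30367 probes). That percentile was 433 to 1284 intensity units, and 59.9 to 73.4% of probes per array were well above background; the number of arrays limits precision. Probes on at least 6 arrays (21181) were fitted with limma 3.58.1 (R 4.3.3), with a mean per diet and Benjamini-Hochberg adjustment at 0.05 over all of them. Figures used matplotlib 3.10.9. Duplicate spots of members differed by a median of 0.39 log2, and 0 members were saturated. Tests were two-sided. Simulated data were used to test the fit.

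Named members were, by rule, the 5 with the highest mean level, those on all arrays (up to 10), the 2 smallest p per direction in each diet comparison, the 5 smallest p for slide, the Tas1r probes, Vom1r6, the probes at the limit, and list genes past the threshold (up to 4 each); other names were chosen after their values were seen. Alternatives were normexp (offset 50), quantile normalization, the authors' table, other filters, 1 probe per name, an intensity trend, array weights, slide or replicate number as a block, exact permutation within slides and leaving out rats. Quantile normalization with the slide block and the omission of 2 pairs of rats were added after seeing the data.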

Additional observations from a re-analysis of the deposited data

Results flagged for a closer look

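In 3 of the 104 groups of 6 rats examined for 25 named members and for the number detected, 1 rat stood farther from the others than Dixon's critical value for 6 values allows; chance alone gives about 1 in 20 such groups. Vom1r23 was at 1.10 in control rat 6, with the next control rat at 0.36. Vom1r55 was at 1.83 in rat 1 on adequate copper with 30% sucrose, with the next rat of that diet at 0.97. Vom1r22 was at -2.97 in control rat 5, with the next control rat at -4.31.

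The copper difference at 30% sucrose differed from that at 10% sucrose, by the interaction test without a slide term, in 32 of the 64 members. Over all probes 20.1% passed. Vom2r36 had an interaction of -1.66 and Vom1r21 of -3.69 (limma adjusted p 0.000989 and 0.00102). With slide as a term they were -1.04 and -2.16 and did not pass (limma adjusted p 0.229 and 0.270). Most control values of Vom1r21 lie at background, so the size of its interaction is uncertain. Diet and slide are largely confounded in this interaction, and the part of slide was not tested beyond that term.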

How the results depend on the processing

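Without a slide term, 40 members passed for low copper at 10% sucrose, 31 for 30% sucrose at adequate copper and 32 for the interaction. With slide as a block, and with quantile normalization and the slide block together (chosen after seeing the data), each of these counts was 0. With normexp the first 2 were 18 and 16, beside 9.16% and 9.58% of all probes that rose, and with array weights 49 and 41 (40 higher, 1 lower), beside 21.5% and 19.9%. Quantile normalization gave 18, 16 and 13, beside 11.3%, 14.3% and 14.6% of all probes. The authors' values gave 18, 14 and 12, beside 10.2%, 13.2% and 12.8%. The members on all 24 arrays alone gave 13, 10 and 10, beside 12.1%, 14.7% and 14.8% of such probes. Without control rats 4 and 6 the first 2 were 23 and 17. Without the 2 slide 3 rats on low copper with 10% sucrose, 14 members passed for sucrose at low copper and 17 for the mean copper difference, both 0 with all rats, and array weights gave 11 for the mean copper difference. The 12 members of the slide test, beside 5.44% of all probes, became 4 with the replicate block (2.29%) and 2 with normexp (0.689%). They became 6 with quantile normalization (3.36%) and with the authors' table (3.01%), and 7 with array weights (4.31%). With no filter 35 of 230 receptor probes passed (8.38%), and on all 24 arrays 3 members (2.99%). The percentages are the shares of all probes fitted in that setting. Leaving out 1 rat gave 25 to 43, 23 to 37 and 25 to 41 for the first 3 comparisons, 0 to 2 for the mean copper difference, 0 to 15 for slide, and 0 for the other 3. A detection limit of 3 or 12 arrays in place of 6 would give 78 or 56 members.

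Rats with the same replicate number did not deviate together (correlations between -0.301 and 0.362 over 36 pairs). With the replicate block the first 3 counts were 40, 31 and 36, beside 18.4%, 20% and 20.2% of all probes. The other diet comparisons stayed at 0.

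Signs turned only for differences that passed under neither setting. At 10% sucrose the copper difference of Tas1r1 (-0.07) became 0.0082 with the slide block and 0.00947 with array weights, and ran from -0.145 to 0.054 without 1 rat. That of Vom2r34 (-0.0028) became 0.065 with the slide block, 0.024 with quantile normalization, 0.068 with the authors' values and 0.066 with quantile normalization and slide block, and ran from -0.10 to 0.078 without 1 rat. Its sucrose difference at adequate copper (-0.05) became 0.087 with the slide block, 0.051 with the authors' values and 0.12 with quantile normalization and slide block, and ran from -0.15 to 0.033 without 1 rat. With normexp Vom1r108 became -0.023 for copper at 30% sucrose and Tas2r125 -0.094 for sucrose at low copper. With quantile normalization and slide block Vom1r100 became 0.35 for sucrose at low copper and 0.34 for mean sucrose. Vom1r22 became 0.024 for mean copper with array weights, and ran from -0.20 to 0.012 without 1 rat. Vom2r36 became -0.017 for mean sucrose with the slide block. The causes were not tested. Of 1190 recomputed values of 33 named differences, 28 lost and 9 gained a call. No slide holds the control diet beside 30% sucrose, and low signal limits the members on few arrays.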
